A study of Bos taurus with 6 samples.

Results

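Tetraspanins are small membrane proteins that cross the lipid bilayer several times and gather partner proteins, such as integrins, immunoglobulin superfamily proteins and proteases, into patches of the cell surface called tetraspanin-enriched microdomains. CD9 and CD81 are close relatives that act at the plasma membrane in adhesion, migration and gamete fusion, CD63 cycles through late endosomes and lysosomes, and they are commonly used together to mark extracellular vesicles. CD9 is also a surface marker of undifferentiated stem cells. The 10 tetraspanin genes CD9, CD63, CD81, CD82, CD151, TSPAN3, TSPAN4, TSPAN6, TSPAN7 and TSPAN9 are described here, found by gene symbol and Entrez identifier among the 19163 genes of the count table. The mammalian family holds 23 further tetraspanins on the list used here, 33 in all, and the remaining members are given for comparison.

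The cells were F7, 1 line of bovine embryonic stem cells (bESCs) from an in vitro fertilized Holstein Friesian embryo. They were grown on mouse embryonic fibroblasts (MEFs) treated with mitomycin C, which stops division but leaves the feeder alive (MC-F7, called 1M-F7 in the sample titles), or on MEFs fixed with methanol, which kills the feeder (MT-F7). Both groups had 3 libraries at 15 passages and shared a medium with FGF2 and the WNT inhibitor IWR1. According to the methods the medium was refreshed every day for MC-F7 and every other day for MT-F7, so feeder and refreshment cannot be told apart. The labels do not say that the 3 libraries of each group were separate cultures, and the p values measure the spread between libraries, which may be technical. Before RNA extraction the cells were plated briefly and the floating cells were taken, to leave feeders behind.

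The total count per library was 21958386 to 24933430. Genes of the mitochondrial genome took 16.3% to 28.3% of the counts, and replicate 3 had the most in each group (28.3% and 27.9%). Of 10 listed pluripotency markers 7 were analysed, since SOX2, LIN28B and TDGF1 were not found in the count table. The 7 summed to 959 to 1590 counts per 1000000 (CPM) in MC-F7 and 581 to 631 CPM in MT-F7. Most of this sum was POU5F1 (mean 1200 and 522 CPM). In MT-F7 6 of the 7 were lower (adjusted p under 0.05), beside 11.3% of all tested genes, and SALL4 did not pass (log2 fold change 0.33). The summed level of 14 fibroblast markers was 332 to 397 CPM in MC-F7 and 513 to 553 CPM in MT-F7. Of the 13 tested, 5 were higher in MT-F7, beside 11.9% of all tested genes, and 8 did not pass. The largest part of the sum was COL1A1 (mean 205 and 268 CPM), which did not pass, and THY1 had a log2 fold change of -0.32. The 9 trophectoderm markers summed to 54.1 to 79.4 CPM in MC-F7 but only 7.52 to 8.57 CPM in MT-F7, with CDX2 and HAND1 at 0 in all libraries. Most of this sum was KRT7 (mean 63.7 and 6.28 CPM), so the fall of the sum is mainly that of 1 gene. Of the 9 markers 5 were too low to test, 3 were lower in MT-F7 and TFAP2A did not pass (log2 fold change 0.15). The sums of 7 neural markers (484 to 556 and 666 to 723 CPM) and of 7 endoderm markers (126 to 207 and 329 to 368 CPM, with GATA4 and AFP at 0) were higher in MT-F7. Most of the neural sum was NES (mean 312 and 412 CPM) and TUBB3 (202 and 174 CPM), and neither passed. PAX6 (2.63 and 19.9 CPM) and RAX (10.3 and 81.0 CPM) were higher in MT-F7. Most of the endoderm sum was APOA1 (161 and 346 CPM), while FOXA2 was lower in MT-F7 (4.82 and 0.503 CPM). The part of such cells in the results that follow was not tested. Mouse reads that match the bovine genome cannot be told apart from bovine reads in the counts, and mouse reads that did not align are not seen in them. The paper reports a higher rate of alignment to the bovine genome for MT-F7 than for MC-F7. It proposes that the fixed feeders left less contamination, so feeder reads may differ between the groups. In bulk RNA fewer cells of a type cannot be told apart from less RNA per cell.

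All 10 genes had enough counts to be tested. CPM are normalized by the trimmed mean of M-values (TMM), log2 fold changes are MT-F7 over MC-F7, and each adjusted p comes from edgeR's quasi-likelihood test with Benjamini-Hochberg adjustment over 13001 genes. In the MT-F7 cells CD9 was significantly lower, and CD82 and TSPAN9 were significantly higher, than in the MC-F7 cells. These 3 of 10 genes passed an adjusted p under 0.05, against 23.2% of all tested genes (11.9% higher and 11.3% lower), so the count of changed genes was near that of the transcriptome. The median log2 fold change of the 10 genes was 0.37, beside -0.0026 over all tested genes, and 7 of the 10 were above 0.

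CD9 (Entrez gene 280746), which binds integrins and the immunoglobulin proteins IGSF8 and PTGFRN, had 725, 656 and 329 CPM in the MC-F7 libraries and 281, 212 and 179 CPM in the MT-F7 libraries. Every MT-F7 library lay below every MC-F7 library, although MC-F7 replicate 3 was much closer to the MT-F7 libraries than to its own group. The mean level was 2.55-fold lower in MT-F7, a log2 fold change of -1.35 with a 95% confidence interval from -1.92 to -0.78 (adjusted p = 0.0029). The call held in each of the 6 fits that left out 1 library, with log2 fold changes from -1.63 to -1.14. It was lost in 3 of the 4 limma tests on the deposited TPM values (adjusted p = 0.091, 0.078 and 0.065). The paper also reports CD9, as a marker of naive stem cells, to be lower in MT-F7. That report came from these same libraries, so the direction of CD9 here is not independent evidence.

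CD81 (511435), the closest relative of CD9, had 518, 489 and 389 CPM in MC-F7 and 397, 341 and 431 CPM in MT-F7. The groups overlapped, since MC-F7 replicate 3 lay below 2 of the MT-F7 libraries. Its log2 fold change was -0.26 with an interval from -0.62 to 0.11 (adjusted p = 0.30), so a fall of the size seen in CD9 lies outside the interval. Without replicate 3 of both groups, a setting chosen after the data were seen, it was -0.43 and passed (edgeR adjusted p = 0.018).

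CD63 (404156), the tetraspanin of late endosomes and lysosomes, had 269, 242 and 166 CPM in MC-F7 and 351, 300 and 333 CPM in MT-F7. The MT-F7 libraries were all higher than the MC-F7 libraries. Of the 10 genes, 3 lay above (CD63, CD82 and TSPAN9) and 1 below (CD9) in this way, beside 19.9% and 20.1% of all tested genes, together 40.0%. The log2 fold change of 0.54 had an interval from 0.14 to 0.94, and the adjusted p of 0.052 missed the threshold. It passed in 1 of the 6 fits that left out 1 library, and over these fits the adjusted p ran from 0.027 to 0.16. With DESeq2 in place of edgeR CD63 passed (adjusted p = 0.024).

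**Figure D1:**
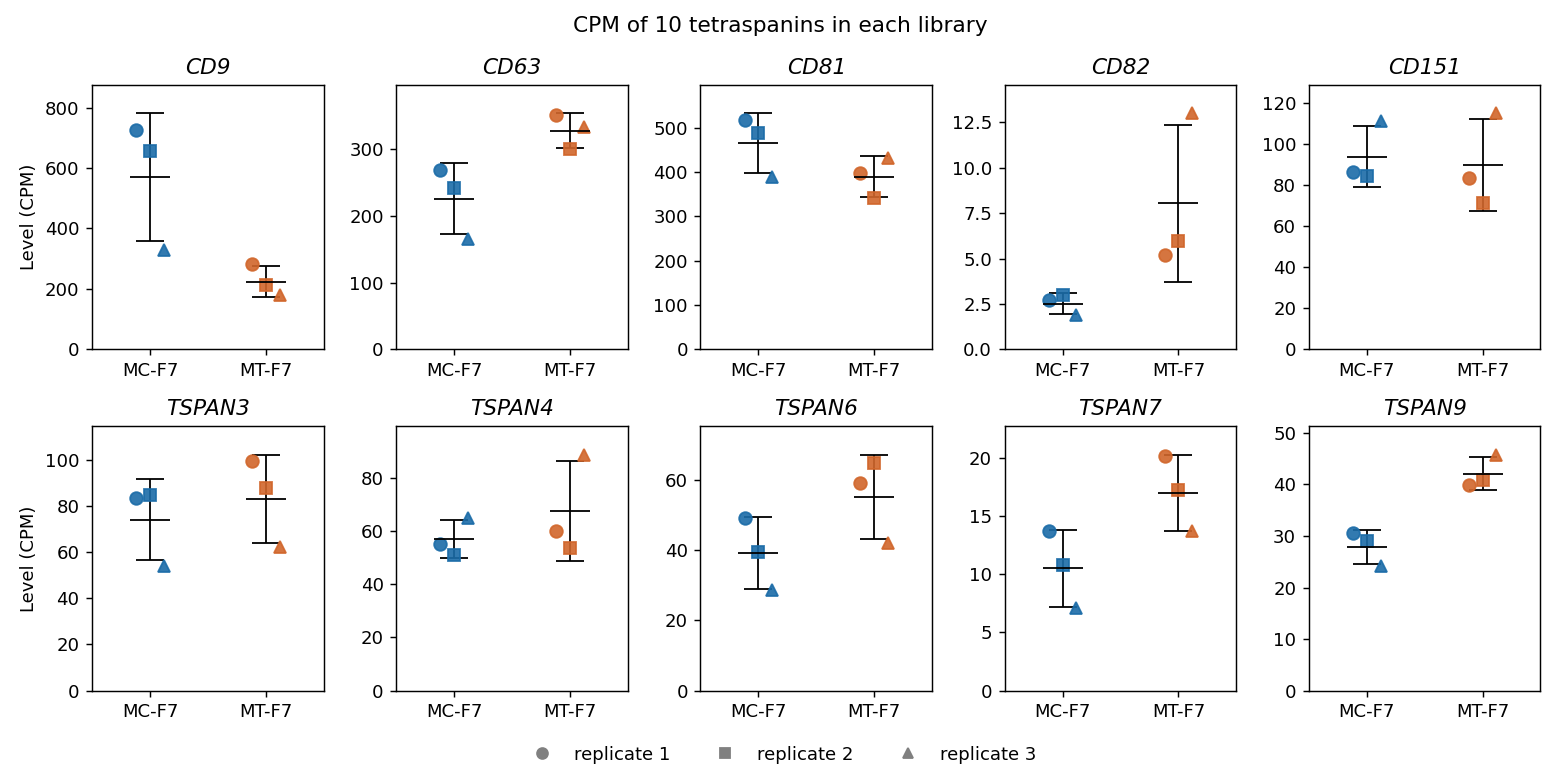
Level in CPM (vertical axis, linear from 0, a separate scale for each gene) of the 10 tetraspanins in the 6 libraries of both groups, with the mean and SD as bars and the replicate number as symbol. CD9 in MT-F7 (179 to 281 CPM) lies below MC-F7 (329 to 725 CPM), while CD63, CD82 and TSPAN9 lie above it in every MT-F7 library.

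CD82 (506713), also known as KAI1 and as a suppressor of metastasis, was the least abundant of the 10 genes and had the largest fold change among them. The counts were 61, 72 and 40 for MC-F7 against 130, 154 and 307 for MT-F7, which is 2.7, 2.98 and 1.87 CPM against 5.18, 5.95 and 13.0 CPM. No MT-F7 library was as low as an MC-F7 library, and MT-F7 replicate 3 stood apart from the other two. The log2 fold change was 1.67 with an interval from 0.91 to 2.43 (adjusted p = 0.0042). Without MT-F7 replicate 3 it was 1.13 (adjusted p = 0.013), and without replicate 3 of both groups it was 0.98 (adjusted p = 0.013).

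TSPAN9 (540132), best known from platelets, had 30.6, 29.0 and 24.2 CPM in MC-F7 and 39.8, 40.8 and 45.8 CPM in MT-F7. The 2 groups were narrow and separate. The log2 fold change of 0.59 had an interval from 0.25 to 0.93 (adjusted p = 0.015), and the call was lost without MC-F7 replicate 2 (adjusted p = 0.061).

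TSPAN6 (514741), which binds the vesicle protein syntenin, and TSPAN7 (615596), a gene of synapse formation linked to intellectual disability, had higher means in MT-F7 without passing the test. TSPAN6 had 49.3, 39.6 and 28.8 CPM in MC-F7 and between 42.0 and 65 CPM in MT-F7 (mean 55.3 ± 12, SD, n = 3), a log2 fold change of 0.50 with an interval from 0.03 to 0.96 (adjusted p = 0.11). TSPAN7 had 13.7, 10.8 and 7.11 CPM in MC-F7 and 20.2, 17.2 and 13.7 CPM in MT-F7, a log2 fold change of 0.69 with an interval from 0.18 to 1.2 (adjusted p = 0.053). In both genes the lowest MT-F7 library reached into the range of MC-F7. TSPAN7 passed with DESeq2 (adjusted p = 0.033), and with edgeR when MC-F7 replicate 1 or MT-F7 replicate 3 was left out (adjusted p = 0.019 and 0.026). TSPAN6 passed with edgeR in the same 2 fits (adjusted p = 0.045 and 0.029).

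The remaining 3 genes showed no detectable difference. CD151 (523328), which binds laminin receptors of the integrin family, had 93.9 ± 14.8 CPM in MC-F7 and 90.0 ± 22.4 CPM in MT-F7 (SD, n = 3), with an interval of the log2 fold change from -0.47 to 0.35 (edgeR adjusted p = 0.85). TSPAN3 (616881) had 74.1 ± 17.5 and 83.2 ± 19.1 CPM, with an interval from -0.29 to 0.62 (edgeR adjusted p = 0.61). TSPAN4 (505288), known from the migrasomes left behind by moving cells, had 57.0 ± 7.05 and 67.5 ± 18.7 CPM, with an interval from -0.18 to 0.66 (edgeR adjusted p = 0.40). The intervals of TSPAN3 and TSPAN4 still allow a rise of the size seen in TSPAN9.

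To compare one gene with another, the values per gene length that the authors call TPM were used, scaled to 1000000 per library. On this scale the order of the 3 major tetraspanins turned around between the feeders. CD9 came first in MC-F7 with 575 ± 223 TPM (SD, n = 3), followed by CD81 with 419 ± 70.9 and CD63 with 298 ± 76.0, but neighbours in this order overlapped, with the lowest value of each gene in MC-F7 replicate 3. In MT-F7 the order was CD63 with 455 ± 33.1 TPM, CD81 with 369 ± 28.3 and CD9 with 238 ± 60.3, and no neighbours overlapped. TSPAN3 followed in both groups with 57.2 ± 15.1 and 67.9 ± 17.7 TPM, and CD82 was the lowest of the 10. Among 21357 genes ranked by mean level per length, CD9 stood at 161 in MC-F7 and at 394 in MT-F7, CD63 at 299 and 204, and CD81 at 222 and 246.

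The ratio of CD9 to CD63 in TPM was 2.06, 2.06 and 1.51 in the MC-F7 libraries and 0.608, 0.539 and 0.409 in the MT-F7 libraries. CD9 therefore exceeded CD63 in every MC-F7 library and in no MT-F7 library. With 3 libraries against 3 an exact permutation test cannot give a two-sided p below 0.1, and this ratio gave that smallest p. The test was planned for the shares described below and not for ratios. The levels of CD9 and CD63 already separated the groups in opposite directions, so the separation of their ratio is not further evidence. The ratio of CD9 to CD81 was 1.56, 1.49 and 0.943 in MC-F7 against 0.787, 0.693 and 0.462 in MT-F7, so CD9 exceeded CD81 in 2 of the 3 MC-F7 libraries. The ratio of CD63 to CD81 was 0.624 to 0.759 in MC-F7 and 1.13 to 1.29 in MT-F7, also without overlap (exact permutation p = 0.1).

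The share of each gene in the summed TPM of the 31 listed tetraspanins with TPM values sets this apart from the level of the whole family. That sum, scaled to 1000000 per library, was 1620 ± 400 TPM in MC-F7 and 1460 ± 115 TPM in MT-F7, and the groups overlapped (exact permutation p = 0.5, n = 3 each). CD9 held 38.6%, 37.4% and 27.5% of it in the MC-F7 libraries and 18.8%, 16.5% and 13.0% in the MT-F7 libraries. CD63 held 18.8%, 18.1% and 18.2% in the MC-F7 libraries, against 30.9%, 30.5% and 31.9% in the MT-F7 libraries.

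The CD63 share thus hardly varied within a group, although its CPM in MC-F7 ran from 166 to 269. CD81 held 26.3% ± 2.48 and 25.3% ± 2.55 (SD, n = 3), a difference smaller than the spread. TSPAN6, TSPAN7, TSPAN9 and CD82 also held a larger share in every MT-F7 library than in any MC-F7 library, and each of these reached the smallest exact p of 0.1. Shares in a common sum are not independent, since a lower CD9 share raises the others. CD9, CD81 and CD63 together made up 74.9% to 82.0% of the sum in MC-F7 and 70.7% to 73.6% in MT-F7.

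**Figure D2:**
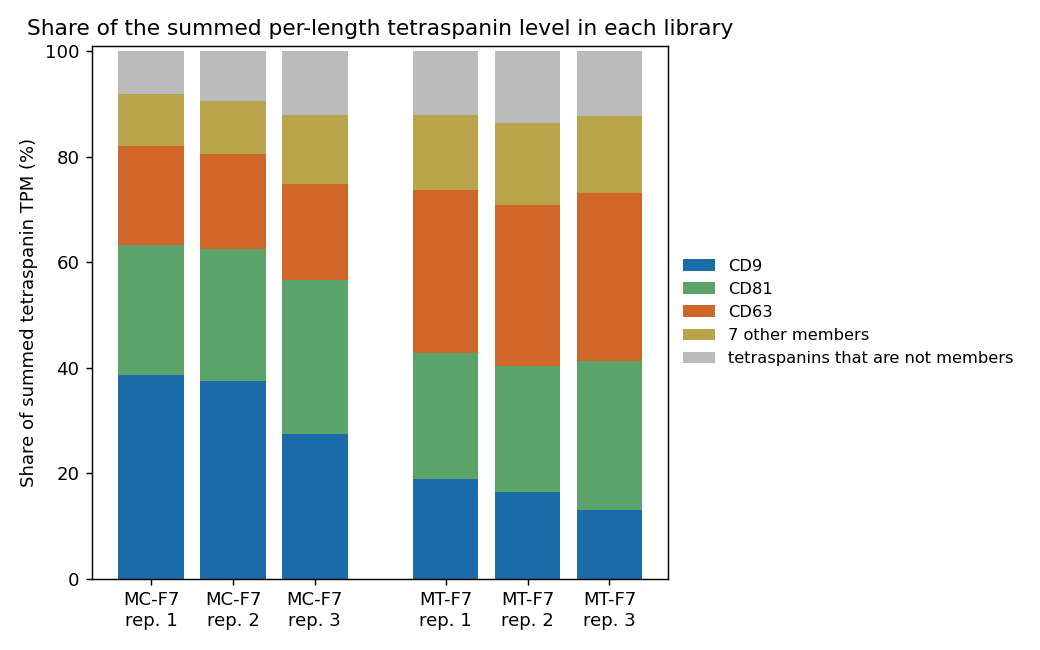
Share in percent (vertical axis) of the summed per-length level of 31 tetraspanins in each of the 6 libraries, stacked by gene or gene group. The CD9 share is 27.5% to 38.6% in MC-F7 and 13.0% to 18.8% in MT-F7, while the CD63 share is 18.1% to 18.8% and 30.5% to 31.9%.

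The 10 genes varied within the groups in more than one way. In CD9, TSPAN3, TSPAN6 and TSPAN7 replicate 3 was the lowest library of both groups, at 0.477 to 0.647 times the mean of the other 2 libraries in MC-F7 and 0.663 to 0.731 times in MT-F7. In CD151 and TSPAN4 replicate 3 was the highest library of both groups, at 1.30 and 1.22 times the other 2 in MC-F7 and 1.48 and 1.56 times in MT-F7. For CD63, CD81, CD82 and TSPAN9 replicate 3 was the lowest library of MC-F7 but not of MT-F7. Among all tested genes replicate 3 was the lowest in both groups for 25.8% and the highest in both for 24.7%, so this grouping was common in these libraries. Replicate 3 was also the library with the highest mitochondrial share in both groups, whose part in these levels was not tested.

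**Figure D3:**
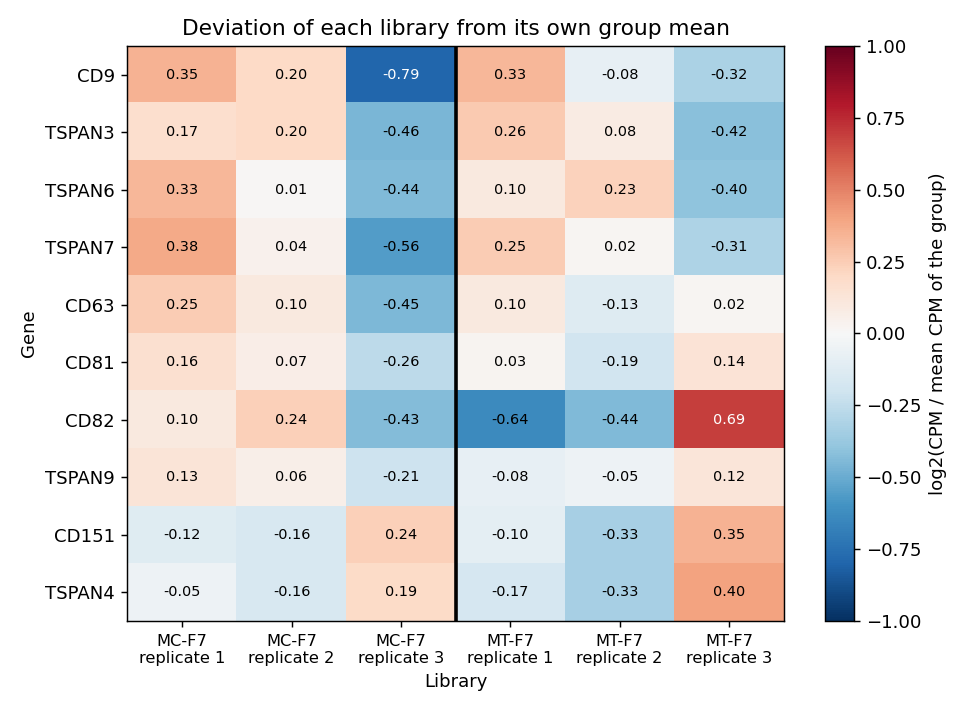
Deviation of each library (horizontal axis) from the mean of its own group for each of the 10 genes (vertical axis), as log2 of CPM over the group mean CPM, written in each cell and shown by colour. CD9, TSPAN3, TSPAN6 and TSPAN7 are below the mean in replicate 3 of both groups (-0.79 and -0.32 for CD9), and CD151 and TSPAN4 are above it.

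The genes whose pattern was most like that of CD9 over the 6 libraries, by Pearson's r of log2(CPM + 1) among the 7810 genes that averaged 10 CPM or more, were PDIA5 (r = 0.9995), ISG12(B) (r = 0.9987), SRP68 (r = 0.9961), ECE2 (r = 0.9949) and SSU72 (r = 0.9939). These correlations describe the same 6 libraries, which share the split into groups and the low replicate 3. ISG12(B), an interferon-stimulated gene, went from 22.8 ± 10.6 to 5.94 ± 2.07 CPM, whereas PDIA5, a protein disulfide isomerase, went from 60.5 ± 7.56 to 46.2 ± 2.91 CPM (SD, n = 3). Likeness of pattern was therefore not likeness in the size of the change.

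Of the 23 further tetraspanins, 21 were in the count table and 18 could be tested, and TSPAN10 and TSPAN16 were not analysed here. TSPAN15 was the highest of them per length in MC-F7 (34.6 ± 0.565 and 28.1 ± 3.78 CPM, edgeR adjusted p = 0.19). The expression levels of TSPAN12, TSPAN13, TSPAN18 and CD37 were significantly higher and those of TSPAN5 and UPK1A were significantly lower in the MT-F7 cells. These 6 of 18 compare with 23.2% of all tested genes, and the median log2 fold change was 0.04. TSPAN13 (526460) had 20.8, 21.6 and 14.5 CPM in MC-F7 and 50.1, 57.1 and 38.7 CPM in MT-F7, the largest rise among these 18 genes (log2 fold change 1.36, standard error 0.199, adjusted p = 3.7e-04). TSPAN12 (613639), a part of the norrin and Frizzled 4 receptor complex, went from 9.49 ± 1.38 to 16.5 ± 3.45 CPM (log2 fold change 0.80, edgeR adjusted p = 0.012, n = 3 each).

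TSPAN18 (783765) went from 5.31 ± 1.19 to 12 ± 0.424 CPM (log2 fold change 1.18, edgeR adjusted p = 0.0013). It overlaps the gene TP53I11 in the RefSeq annotation of the ARS-UCD2.0 assembly, and TP53I11 went from 19.5 ± 4.84 to 59.1 ± 9.93 CPM (edgeR adjusted p = 1.2e-04). CD37 (508751), a tetraspanin of B cells and other leukocytes, went from 11.4 ± 1.72 to 17.2 ± 1.75 CPM (log2 fold change 0.58, edgeR adjusted p = 0.032) and overlaps TEAD2, which went from 210.0 ± 9.36 to 288 ± 21.2 CPM (edgeR adjusted p = 0.037). Neither counting by strand nor the handling of reads that fall on overlapping genes is stated. Such reads may have been left out or given to the other gene, so both tetraspanins are uncertain. PTPRC, the general leukocyte marker, was at 0.234 CPM in MC-F7 and 0.184 CPM in MT-F7 on average. Of the 10 genes first described, 5 overlap another annotated gene, and none of those overlapping genes was in the count table.

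TSPAN18 is the direct neighbour of CD82 in the order of protein-coding genes, and both rose. TSPAN9 is the direct neighbour of TSPAN11, which had 39.1 ± 3.41 CPM in MC-F7 and 41.2 ± 2.62 CPM in MT-F7 (log2 fold change 0.07, edgeR adjusted p = 0.77), so that of this pair only TSPAN9 passed the test. CD151 and TSPAN4, with 1 gene between them, were the 2 genes that stood highest in replicate 3 of both groups.

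TSPAN5, TSPAN14, TSPAN15, TSPAN17 and TSPAN33 belong to the TspanC8 subgroup, which escorts the protease ADAM10 out of the endoplasmic reticulum and steers its choice of substrate. TSPAN5 (538668) had 23.7, 23.7 and 21.2 CPM in MC-F7 and 17.3, 12 and 11.0 CPM in MT-F7, without overlap (log2 fold change -0.77, standard error 0.192, adjusted p = 0.011). It was the one member of this subgroup that passed, and the log2 fold changes of the other 4 lay between -0.30 and 0.11. TSPAN15 and TSPAN33 also lay below MC-F7 in every MT-F7 library, as did 20.1% of all tested genes. Neither passed (edgeR adjusted p = 0.19 and 0.25). ADAM10 itself had 56.8 ± 8.73 and 78.8 ± 10.1 CPM, with a log2 fold change of 0.47 that did not pass (edgeR adjusted p = 0.057).

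Some tetraspanins typical of other tissues were near or at the limit of detection. UPK1A (282112), a uroplakin of the bladder lining, gave counts of 34, 48 and 38 for MC-F7 but 9, 16 and 13 for MT-F7 (log2 fold change -1.78, adjusted p = 0.0065). UPK1B gave 16, 17 and 5 against 1, 7 and 4 and was too low for the test. TSPAN8 and CD53, the latter a marker of leukocytes, had 0 counts in all 6 libraries, which allows up to 3 counts per library, or 0.116 to 0.140 CPM by counting error alone.

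**Figure D4:**
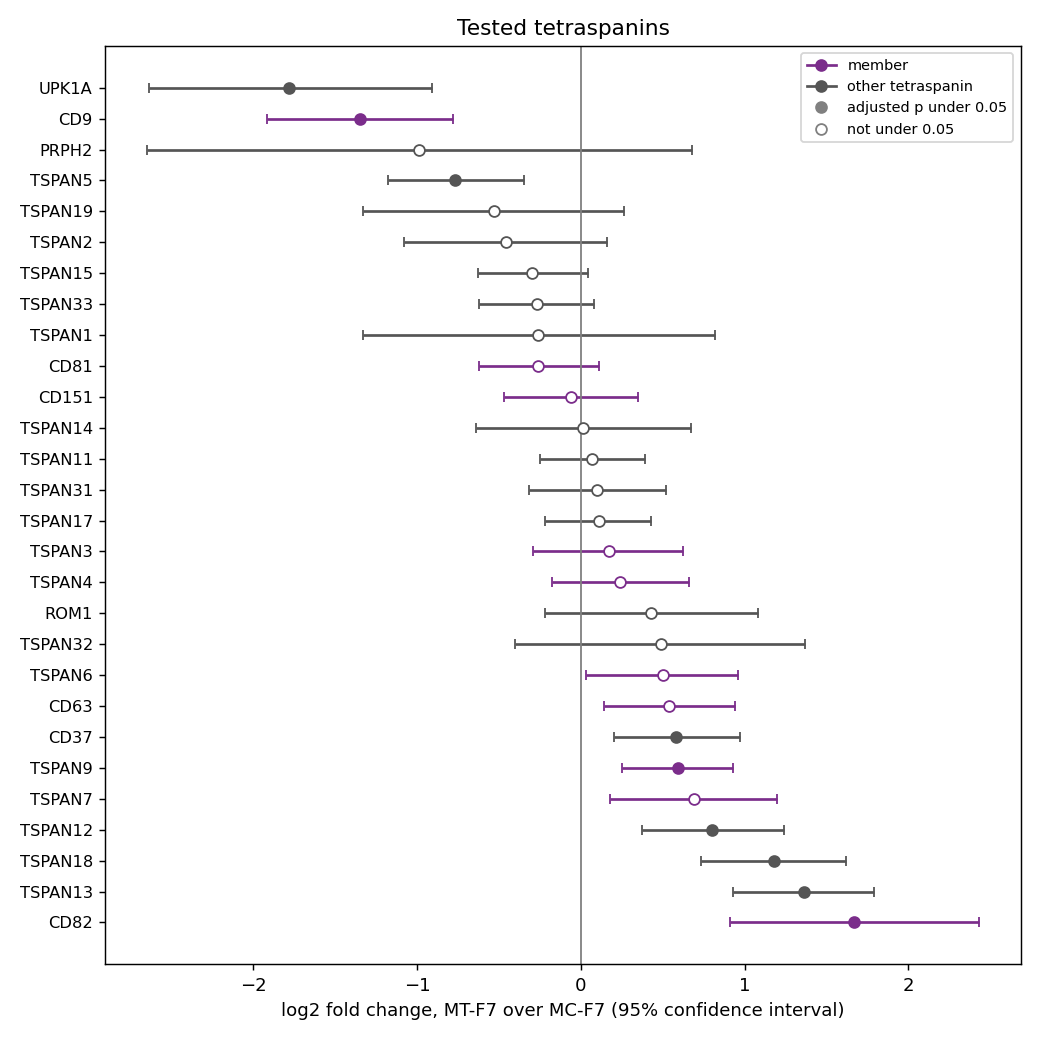
Log2 fold change of MT-F7 over MC-F7 (horizontal axis) with its 95% confidence interval for the 28 tested tetraspanins, sorted by value, with filled points for an adjusted p under 0.05. CD9 and UPK1A are the lowest of the filled points and TSPAN13 and CD82 the highest, and most intervals include 0.

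Tetraspanins act through their partners, so 25 genes of known partners and modifying enzymes were examined, of which 24 were in the count table and 23 were tested. In the MT-F7 cells 6 of them were significantly lower and 3 significantly higher, and 14 did not pass. These 9 are 39.1% of the tested partners, beside 23.2% of all tested genes (11.9% higher and 11.3% lower), and the median log2 fold change was 0.18. ITGA6 and CLDN7 are also among the adhesion genes that the study picked from these libraries, so their direction is not independent evidence. CLDN1, another claudin, had 0 to 15 counts and was too low to test.

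Among the partners of CD9 and CD81 of the immunoglobulin superfamily, IGSF3 was lower (35.0 ± 0.526 to 25.3 ± 3.27 CPM, edgeR adjusted p = 0.046). IGSF8, the best known partner of both, had 67.6 ± 6.37 CPM in MC-F7 and 79.2 ± 24.0 CPM in MT-F7 (edgeR adjusted p = 0.44), and PTGFRN had a log2 fold change of 0.49 (edgeR adjusted p = 0.081). EPCAM, an epithelial adhesion molecule that associates with CLDN7 and CD9, had 168, 149 and 103 CPM in MC-F7 and 72.3, 63.2 and 49.6 CPM in MT-F7, without overlap (log2 fold change -1.18, adjusted p = 0.0011). CLDN7, a claudin of tight junctions, had 78.3, 80.3 and 74.5 CPM in MC-F7 and 14.3, 13.7 and 15.5 CPM in MT-F7, the largest change on this list (log2 fold change -2.42, adjusted p = 7.6e-07).

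Both subunits of the laminin receptor that CD151 holds at the cell base were lower, while CD151 did not pass the test. ITGA6 went from 163 ± 14.9 to 75.9 ± 8.78 CPM (log2 fold change -1.10, edgeR adjusted p = 2.3e-04) and ITGB4 from 38.1 ± 0.858 to 16.0 ± 2.68 CPM (log2 fold change -1.26, edgeR adjusted p = 1.7e-04). ITGA3, the other main partner of CD151, and ITGB1, the beta subunit common to many integrins, had log2 fold changes of -0.22 and -0.18 and did not pass. ITGA7 was higher, at 11.1, 16.4 and 19.5 CPM in MC-F7 and 24.9, 17.7 and 45.8 CPM in MT-F7, with overlapping groups and an adjusted p of 0.048.

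GPC3, a glypican that binds CD81, rose from 110, 114 and 74.4 CPM to 352, 316 and 217 CPM (log2 fold change 1.57, adjusted p = 2.1e-04). ZDHHC2, an enzyme that attaches palmitate to CD9 and CD151, gave counts of 9, 16 and 20 for MC-F7 but 60, 66 and 65 for MT-F7 (log2 fold change 1.94, adjusted p = 0.0028). IFITM1, an interferon-induced membrane protein found with CD81 and CD9, was lower (12.5 ± 3.39 to 6.84 ± 1.97 CPM, edgeR adjusted p = 0.025), with overlapping groups. FZD4, the receptor served by TSPAN12, had 2.61, 2.61 and 2.20 CPM in MC-F7 and 3.71, 3.82 and 4.46 CPM in MT-F7, without overlap but with an adjusted p of 0.066.

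**Figure D5:**
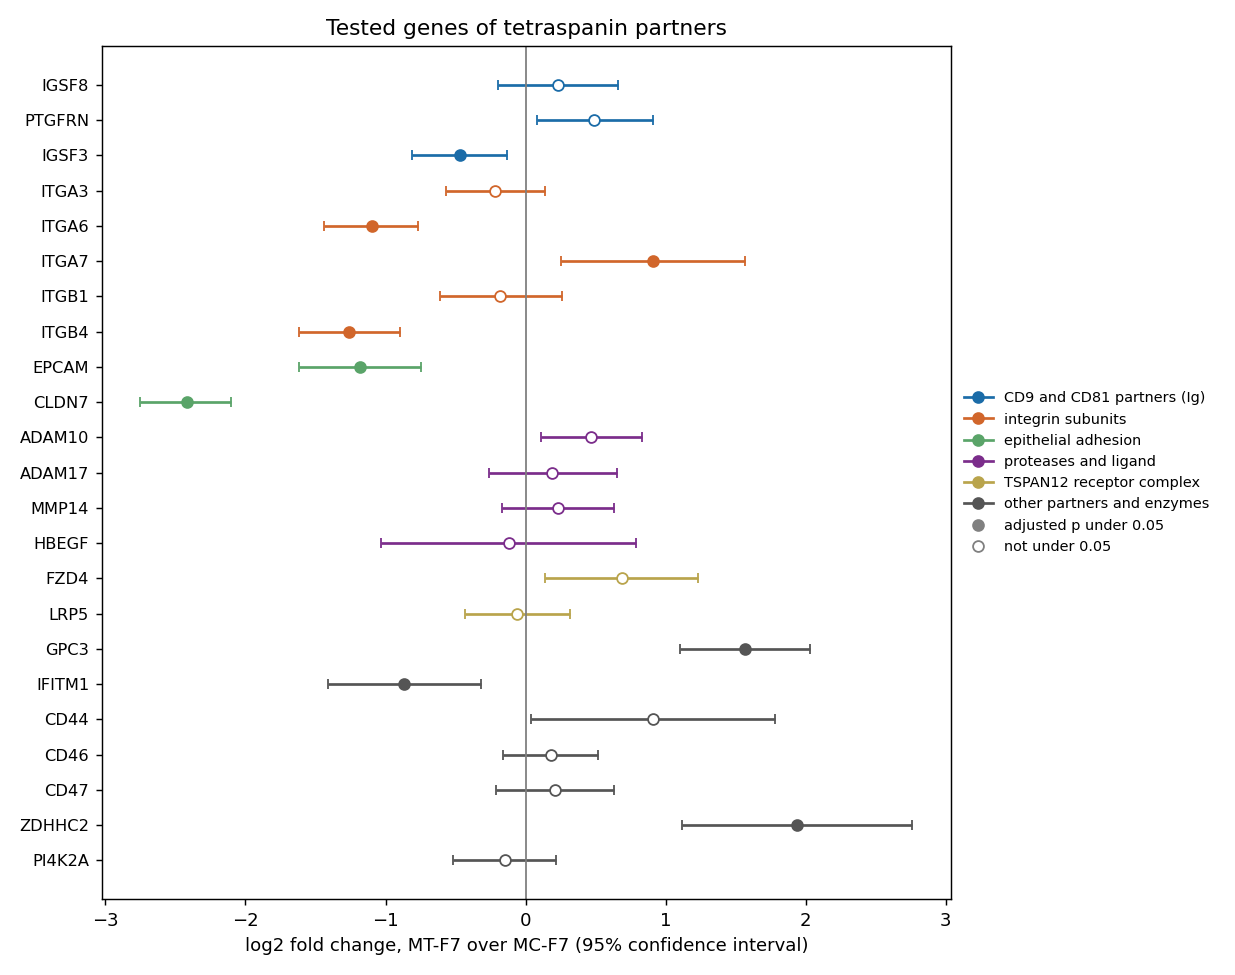
Log2 fold change of MT-F7 over MC-F7 (horizontal axis) with its 95% confidence interval for 23 partner genes of tetraspanins, coloured by role, with filled points for an adjusted p under 0.05. CLDN7 (-2.42) is the lowest and ZDHHC2 (1.94) the highest.

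CD63, CD81 and CD9 leave cells on extracellular vesicles, and 22 genes of vesicle formation and endosomal sorting were taken as a further list. Of the 21 that were tested, RAB27A was higher and LAMP2 was lower in MT-F7, which is 9.52% of the list beside 23.2% of all tested genes, and the median log2 fold change was -0.07. RAB27A, a small GTPase that docks multivesicular bodies at the plasma membrane, had 99, 107 and 97 counts in MC-F7 libraries against 234, 260 and 157 in MT-F7 libraries (4.45 ± 0.0794 and 8.68 ± 1.78 CPM), a log2 fold change of 0.96 (edgeR adjusted p = 0.0067, n = 3 each). LAMP2, a lysosomal membrane protein that shares its compartment with CD63, had 267, 236 and 160 CPM in MC-F7 and 147, 136 and 104 CPM in MT-F7 (log2 fold change -0.78, adjusted p = 0.014), and LAMP1 had a log2 fold change of 0.49 that did not pass (adjusted p = 0.085). CHMP2A, a subunit of the ESCRT-III complex and the highest of the list per length, had 139 ± 18.0 and 133 ± 14.9 CPM (edgeR adjusted p = 0.80, n = 3 each). SMPD3, an enzyme that makes ceramide, had 4 to 32 counts and was too low to test.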

How the data were processed

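RNA-seq data of 3 MC-F7 and 3 MT-F7 libraries were used. The authors used HISAT2 2.0.5 for alignment to a Bos taurus genome and featureCounts 1.5.0-p3 for counting, and deposited raw read counts by Entrez identifier, with library totals of 21958386 to 24933430. The genome build is not given in the sources used here. The authors also deposited values that they call TPM. For every tetraspanin with at least 10 counts these were the counts times 1 factor per gene, so they still hold library size. Of 19163 count table genes, 19074 matched a RefSeq symbol. Of 21653 TPM lines, 21357 genes were used. The members and gene lists were chosen with earlier results of these data known.

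The filterByExpr function (minimum count 10, minimum total 15) left 13001 genes, which were normalized by TMM (factors 0.971 to 1.04) and compared by the quasi-likelihood test of edgeR 4.0.16 (R 4.3.3), two-sided, with Benjamini-Hochberg adjustment and a threshold of 0.05. A fold change of TPM was tested with limma 3.58.1 on log2(TPM + 1) or log2(TPM + 0.1), which understates changes of low genes. DESeq2 1.42.0 was an alternative. The fits were also run on simulated counts with 200 changed genes and the same spread for all genes. Those settings are simpler than these data, so that run does not show how accurate the fits are here. All members were named, and of other lists those that passed, the most abundant and those too low to test. TSPAN11, IGSF8, PTGFRN, ITGA3, ITGB1, ADAM10, FZD4 and LAMP1 were named after their values were seen. Limits of detection (3 counts) cover counting error only. Protein and promoter sequences were not analysed here.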

Additional observations from a re-analysis of the deposited data

How the results depend on the processing

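Under 19 alternative fits CD9 stayed lower in MT-F7 (log2 fold change -1.63 to -1.14) and passed in 16, CD82 passed in 17 of 18 and TSPAN9 in 18 of 19. The number of the 10 tetraspanins higher in MT-F7, 2 as reported, was 4 with DESeq2, with the likelihood ratio test and with all genes of at least 1 count. It was 1 with limma on log2(TPM + 1) and where the mean TPM had to reach 1, and 1 to 5 when 1 library was left out (1 without MC-F7 replicate 2, 5 without MC-F7 replicate 1, 4 without MT-F7 replicate 3). The number lower, 1 as reported, was 0 in 3 limma fits. Without replicate 3 of both groups, chosen after the data were seen, 5 were higher and 2 lower, CD81 among them (-0.43). Of the further tetraspanins 1 was lower, not 2, with 10 counts in every library, in 4 limma fits and without MC-F7 or MT-F7 replicate 2, and 2 were higher without MT-F7 replicate 2. Partners higher, 3 as reported, were 5 with the likelihood ratio test and 1 with 10 counts in every library or a mean TPM of at least 1, where 3 partners were lower. Vesicle genes higher, 1 as reported, were 0 at a mean TPM of at least 1. Vesicle genes lower, 1 as reported, were 0 in 4 limma fits, 0 without MC-F7 replicate 2, and 2 without MT-F7 replicate 2 or both replicates 3. With a log2 fold change over 1.5 and an unadjusted p under 0.05 as the rule, 1 of the 10 tetraspanins was higher and 0 lower, 0 further tetraspanins were higher and 1 lower, 1 partner was lower and 0 vesicle genes passed. Genes passing over the whole table, 3016 as reported, were 1399 at a mean TPM of at least 1, 856 by the fold rule, 1914 to 3093 when 1 library was left out (1914 without MC-F7 replicate 2) and 4242 without both replicates 3.

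CD151 changed sign without MC-F7 replicate 3 (0.07), without MT-F7 replicate 2 (0.08), in 3 limma fits (0.05 each) and on rescaled TPM (0.00). Its leave-one-out log2 fold changes ran from -0.28 to 0.08, those of TSPAN3 from -0.02 (without MC-F7 replicate 3) to 0.33, and those of TSPAN4 from -0.01 (without MT-F7 replicate 3) to 0.39. The causes were not tested.

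The sample titles number the replicates alike in both groups, but nothing says that a number marks a shared culture. Deviations of same-numbered libraries from their group means correlated with r = 0.188, 0.0893 and 0.544 over 13001 genes, and replicate 1 of MC-F7 was most like replicate 2 of MT-F7 (r = 0.412). With the replicate number as a block 5 of the 10 tetraspanins were higher, 7 partners were higher, 2 vesicle genes were higher and 2 lower, and 4674 genes passed in all. Low counts limit CD82, UPK1A and ZDHHC2.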
